A study of Mus musculus with 6 samples.

Results

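Gene expression in the ovary of ICR mice, which are outbred, was compared between 4 RNA sequencing libraries of an ovarian hyperstimulation syndrome (OHSS) model, taken as 1 group, and 2 libraries of a group labelled COH. The 4 pooled libraries are 2 of the OHSS model without a drug and 2 of the OHSS model given nintedanib (bibf1120), so the comparison uses 6 of the 6 libraries in the series. It asks which ovarian transcripts differ from COH in the model whether or not the drug was given. The labels do not spell out COH and give no hormone, dose, time point or age. They record the same strain and tissue for all 3 groups, and the COH libraries carry no model label. Whether replicates are different animals is not said, so the p-values reflect the spread among these 6 samples alone, and that spread may be technical. The 4 pooled libraries are 2 pairs that differ in the drug, and a gene that the drug moved therefore has a larger error in the pooled group.

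OHSS is a complication of ovarian stimulation in which the ovaries swell and fluid leaves the circulation through leaky vessels. Vascular endothelial growth factor (VEGF), made by granulosa and luteal cells, acts on its receptors on endothelial cells and loosens the vessel barrier. Nintedanib blocks receptor tyrosine kinases, among them those that bind VEGF, PDGF and FGF. Steroid hormones are made from cholesterol that ovarian cells take up in lipoproteins or build themselves. Interferons, which cells release when they sense foreign or misplaced nucleic acid, switch on a set of antiviral genes through transcription factors that include STAT2 and members of the IRF family.

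Each library held between 28498435 and 34716751 counts and between 24712 and 25796 genes with a count. Levels are given in CPM, a gene's counts per 1000000 counts of its library after scaling. Markers of the tissue were present in each library, with the granulosa transcription factor Foxl2 at 236 to 299 CPM, the oocyte coat gene Zp3 at 30.2 to 59.4 CPM and the steroidogenic enzyme Cyp11a1 at 8771 to 12570 CPM. Summed levels of 7 tested oviduct markers were 16.3 to 28.1 CPM, and Krt5 of the same list had 0 counts in each library. Replicates of a group differed by more than counting noise. The first principal component of the 500 most variable genes, with 37.5% of their variance, set nintedanib replicate 2 apart from the other libraries.

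Tmem170b, Ak4, Fggy and Nktr rose and Sertad2 fell in the pooled OHSS libraries. These were the 5 genes with an adjusted p below 0.05 (quasi-likelihood test of edgeR, Benjamini-Hochberg adjustment over 19027 genes). That is 0.0263% of the genes tested, with 0.021% higher and 0.00526% lower. Without adjustment, 1827 genes (9.6%) had a p under 0.05, of which 976 (5.13%) were higher and 851 (4.47%) lower. The 4 pooled libraries lay above both COH libraries for 10.9% of genes and below both for 11.3%. With DESeq2 330 genes passed (253 higher, 77 lower) and with limma voom 6, and both sets held the 5 genes called by edgeR. The plot of fold change against mean level shows the 5 genes among all genes tested.

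**Figure D1:**
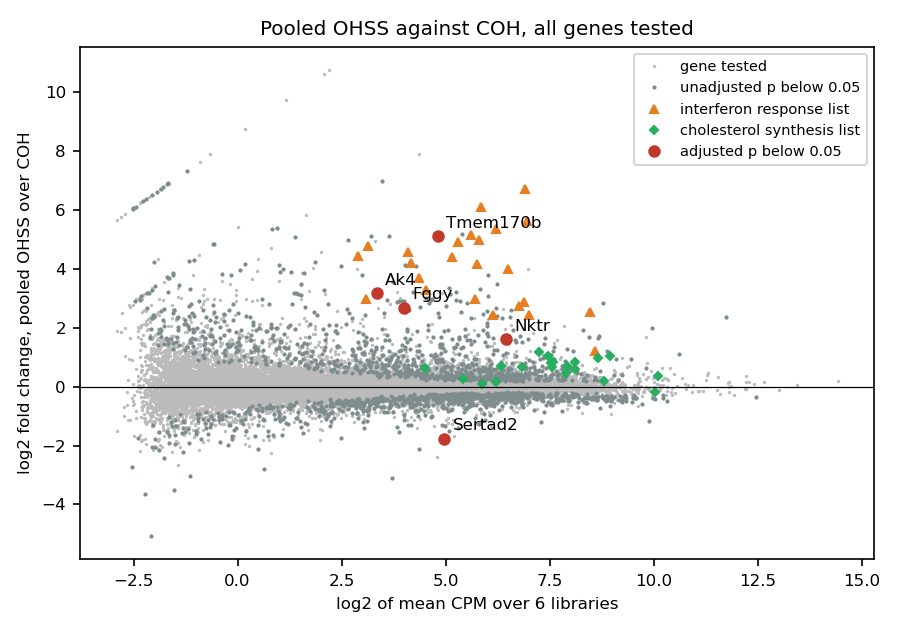
Log2 fold change of the 4 pooled OHSS libraries over the 2 COH libraries (vertical axis) against the log2 of the mean CPM over 6 libraries (horizontal axis), with 1 point per gene tested. Large red points are the 5 genes with an adjusted p below 0.05, triangles the interferon response list, diamonds the cholesterol synthesis list and dark grey points other genes with an unadjusted p below 0.05. The lines of points at the far left come from genes with no counts in 1 or more libraries. The 5 called genes lie at mean levels where the triangles and diamonds also lie, and the highest triangles lie above the 5 called genes.

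Tmem170b (ENSMUSG00000087370), whose product is a transmembrane protein, had 1.12 and 1.296 CPM in COH, 42.6 and 49.0 in OHSS and 35.7 and 39.1 in OHSS with nintedanib. The lowest pooled library was thus far above the higher COH library. The gene averaged 41.6 ± 5.69 CPM (SD, n = 4) against 1.21 ± 0.121 (SD, n = 2), which is 5.10 (SE 0.208) on the log2 scale with an edgeR adjusted p of 0.00273. Ak4 (ENSMUSG00000028527), an adenylate kinase of the mitochondrial matrix, stood at 1.60 and 1.61 CPM in COH, 14.7 and 13.8 in OHSS and 14.5 and 14.9 in OHSS with nintedanib. Its 4 pooled values were as close together as replicates, and neither COH value came near them. The log2 fold change of Ak4 was 3.17 (SE 0.152), edgeR adjusted p = 0.00378, with 14.5 ± 0.465 CPM (SD, n = 4) against 1.61 ± 0.00643 (SD, n = 2). Fggy (ENSMUSG00000028573), a carbohydrate kinase, stood at 3.29 and 3.64 CPM in COH, 23.1 and 21.6 in OHSS and 20.01 and 24.0 in OHSS with nintedanib. With and without nintedanib the Fggy values overlapped and lay above COH, for a log2 fold change of 2.68 (SE 0.150) and an edgeR adjusted p of 0.00675.

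Nktr (ENSMUSG00000032525), a cyclophilin-related protein with a serine- and arginine-rich tail, stood at 40.1 and 34.2 CPM in COH, 102 and 114 in OHSS and 109 and 128 in OHSS with nintedanib. The 4 pooled libraries lay above both COH libraries, a log2 fold change of 1.61 (SE 0.133) with an edgeR adjusted p of 0.0449. Nktr, with a mean of 87.9 CPM over the libraries, overlaps the antisense gene E530011L22Rik. That gene had a mean of 3.39 CPM and a log2 fold change of -0.40. Whether the counting used strand is not given in the sources used here, so how reads of the overlap were assigned is not known. Sertad2 (ENSMUSG00000049800), a SERTA domain regulator of transcription linked to lipid metabolism, stood at 54.5 and 63.9 CPM in COH, 17.2 and 18.9 in OHSS and 16.4 and 16.9 in OHSS with nintedanib. It fell by 1.77 on the log2 scale (SE 0.112, edgeR adjusted p = 0.0105), to 17.4 ± 1.08 CPM (SD, n = 4) against 59.2 ± 6.66 (SD, n = 2). All 4 pooled libraries lay far below both COH libraries, with or without the drug.

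The 5 genes were also compared between the libraries with and without nintedanib, and none passed the test. The log2 difference of nintedanib minus untreated OHSS was -0.29 (SE 0.140) for Tmem170b, 0.044 (SE 0.149) for Ak4 and -0.023 (SE 0.157) for Fggy, in the fit of 3 groups. It was 0.13 (SE 0.141) for Nktr and -0.12 (SE 0.134) for Sertad2. The smallest unadjusted edgeR p of the 5 was 0.0863, for Tmem170b. A p that misses the threshold does not show equal levels, and the errors above give the size of difference that could be seen. Set beside COH separately, in contrasts that share the COH libraries, Tmem170b had log2 fold changes of 5.24 without and 4.95 with the drug, Ak4 3.15 and 3.19, and Fggy 2.69 and 2.67.

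The number of calls depended on single libraries. Without COH replicate 2 edgeR called 0 genes, and 797 had an unadjusted p below 0.05. When COH replicate 1 was left out it called 4 genes, of which Tmem170b was the only one among the 5 above. It called 11 without OHSS replicate 2, 10 without nintedanib replicate 2, 7 without OHSS replicate 1 and 3 without nintedanib replicate 1. The edgeR adjusted p without COH replicate 1 and without COH replicate 2 was 0.0378 and 0.0694 for Tmem170b. Ak4 had 0.0517 and 0.0694, and Fggy had 0.0541 and 0.0718. Sertad2 had 0.0517 and 0.0985, and also missed the threshold when OHSS replicate 1 (0.0546) or nintedanib replicate 1 (0.0686) was left out. Nktr passed without nintedanib replicate 2 (0.0440) and missed it without each of the other 5 libraries, up to 0.266 without COH replicate 2. In the fit of 3 groups Nktr had an adjusted p of 0.0935, with library size as the only scaling 0.0692 and with no filter on low counts 0.0553. The directions of the 5 genes did not change in any of these fits.

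Genes next to the 5 on the chromosome were not called. Of 20 tested neighbours in RefSeq gene order, 2 on each side of each gene, edgeR called 0, and 0 had an unadjusted p under 0.05, the smallest being 0.0629 for Hivep1. Hivep1, beside Tmem170b, stood at 41.7 and 40.8 CPM in COH and 45.3 to 52.0 CPM in the pooled libraries. Jak1, beside Ak4, stood at 354 and 362 CPM in COH and 348 to 414 CPM in the pooled libraries. These neighbours were chosen by position and not by their values.

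Behind the 4 genes that rose, 6 more were taken by smallest p to fill a list of 10, and none of them was called by edgeR. DESeq2 called the 6 and limma voom 1 of them, mt-Atp6. Selenoi, an enzyme that makes phosphatidylethanolamine, stood at 4.78 and 4.62 CPM in COH, 31.7 and 38.4 in OHSS and 41.4 and 24.2 in OHSS with nintedanib, a log2 fold change of 2.85 (SE 0.259) with an edgeR adjusted p of 0.0614. Rassf2, a Ras association domain protein, stood at 11.3 and 10.9 CPM in COH against 50.2, 37.3, 40.4 and 36.1 in the pooled group, with a log2 fold change of 1.88 (SE 0.172) and the same adjusted p. Both genes lay above COH in each of the 4 pooled libraries, and edgeR called both with the stricter filter on low counts. It also called Selenoi and Mndal without nintedanib replicate 2, and Rassf2 without OHSS replicate 1. Pank3, a pantothenate kinase that starts coenzyme A synthesis, stood at 187 and 183 CPM in COH against 294, 275, 296 and 285 in the pooled group, a log2 fold change of 0.64 (SE 0.0817). Mndal, a nuclear protein of the interferon-inducible p200 family, stood at 1.21 and 1.26 CPM in COH against 31.3, 23.1, 32.8 and 79.1 in the pooled group, a log2 fold change of 5.07 (SE 0.663). Nintedanib replicate 2 was the highest library for Mndal, and the gene overlaps its relative Ifi203. The mitochondrial subunit gene mt-Atp6 stood at 802 and 997 CPM in COH against 5454, 5335, 3500 and 4403 in the pooled group, a log2 fold change of 2.38 (SE 0.244). This value is uncertain, because 99.6% of the transcript is shared with a near-identical copy, Gm10925, and the gene overlaps mt-Atp8 and mt-Co3. Those overlapping genes had log2 fold changes of 0.28 and -0.095, for mt-Atp8 and mt-Co3. Tomm40l, a channel protein of the outer mitochondrial membrane, had a log2 fold change of 0.94 (SE 0.117) and shares 68.9% of its transcript with Nr1i3 on the other strand.

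Below Sertad2, 9 genes filled the list of lower genes, again with 0 called by edgeR. DESeq2 called the 9, and limma voom 0. Nkiras2, a Ras-like protein that binds NF-kB inhibitors, stood at 30.2 and 54.3 CPM in COH, 9.42 and 12.3 in OHSS and 9.82 and 7.45 in OHSS with nintedanib, with the COH replicates themselves far apart. Its log2 fold change was -2.12 (SE 0.274), and it overlaps Dnajc7 on the other strand, whose log2 fold change was -0.069. Igfbp4, a binding protein of insulin-like growth factors, stood at 683 and 618 CPM in COH against 413, 408, 424 and 412 in the pooled group, a log2 fold change of -0.65 (SE 0.0852). The 4 pooled values of Igfbp4 lay close together and below both COH values. Gimap4, a GTPase best known from lymphocytes, stood at 40.5 and 36.1 CPM in COH against 18.9, 18.4, 21.9 and 16.7 in the pooled group, a log2 fold change of -1.01 (SE 0.134). Cygb, the globin cytoglobin, stood at 226 and 245 CPM in COH against 167, 158, 156 and 157 in the pooled group. Also among the 9 were Ccdc102a, Pogk and the ribosomal protein genes Rps28 and Rps21, with log2 fold changes between -0.69 and -0.54. The plot of ranked genes gives each library's value for 19 of these 20 genes.

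**Figure D2:**
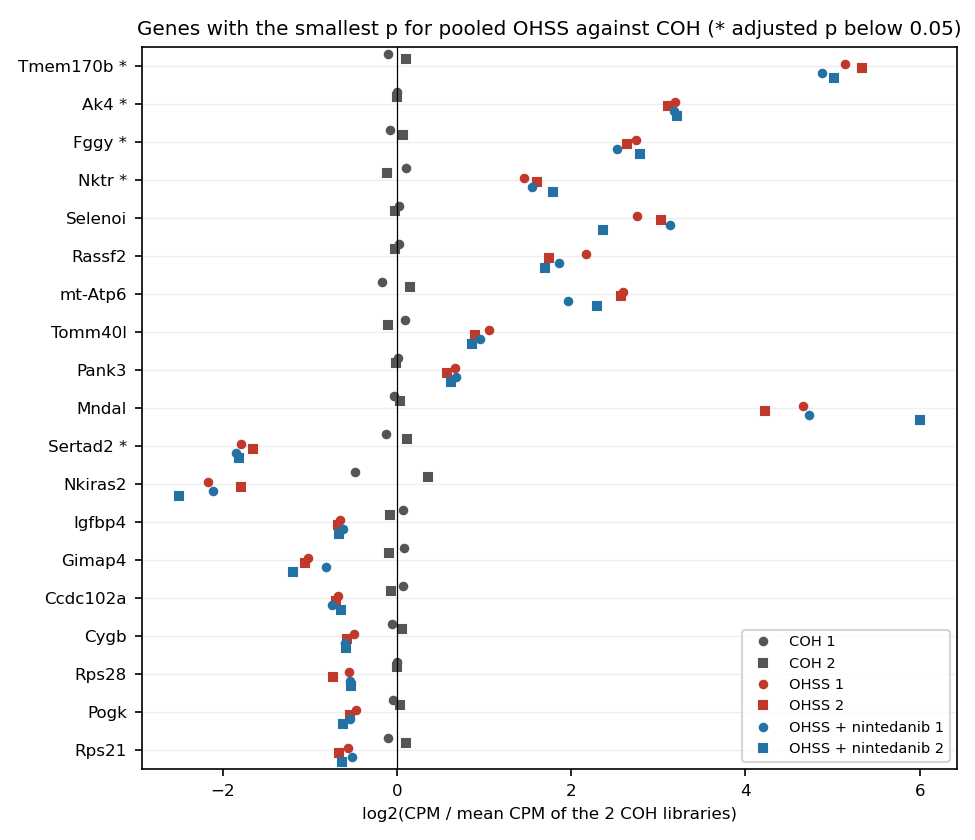
Of the genes with the smallest p, 10 higher and 9 lower ones, as log2 of CPM over the mean CPM of the 2 COH libraries (horizontal axis), with 1 point per library (grey COH, red OHSS, blue OHSS with nintedanib; circles replicate 1, squares replicate 2). An asterisk marks the 5 genes with an adjusted p below 0.05. For each of the 19 genes drawn the 4 OHSS points lie on 1 side of both COH points, which follows from how the genes were ranked.

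Genes of the interferon response had higher means in the pooled OHSS libraries for 24 of the 24 listed members, and none passed the adjusted test of edgeR. Over all genes tested, 51.1% had a higher mean. Of the 24, 23 had an unadjusted edgeR p under 0.05 in the higher direction, against 5.13% of all genes, and for 22 the 4 pooled libraries lay above both COH libraries, against 10.9%. The median log2 fold change was 4.19, beside 0.0075 for all genes. The smallest edgeR adjusted p of the list was 0.404, while DESeq2 called 21 members and limma voom 0. The spread between the pooled libraries was large: the list median lay above the COH mean by 4.27 and 1.77 in the 2 OHSS libraries and 3.12 and 5.15 in the 2 with nintedanib, on the log2 scale. Nintedanib replicate 2 was the highest of the 4 for 24 members and OHSS replicate 2 the lowest for 23.

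The promoters of 4 members are shown because they are the members with the smallest p whose promoter holds the interferon-stimulated response element. Each line gives 250 bases that end at the start of the gene, from RefSeq (GRCm38.p6), 5′ to 3′ on the strand of the gene, with matches to the element in capitals, that is GAAA, any 2 bases and GAAA again, or its reverse complement. The regions are chr5:120907526-120907775 on the minus strand for Oas1a, chr10:128270248-128270497 on the plus strand for Stat2, chr4:156200819-156201068 on the minus strand for Isg15 and chr19:34607707-34607956 on the plus strand for Ifit3b.
Oas1a: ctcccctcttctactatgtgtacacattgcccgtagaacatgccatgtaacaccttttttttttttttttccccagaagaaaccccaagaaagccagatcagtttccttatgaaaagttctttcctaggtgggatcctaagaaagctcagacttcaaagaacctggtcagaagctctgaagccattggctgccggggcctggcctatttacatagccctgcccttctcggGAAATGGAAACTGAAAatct
Stat2: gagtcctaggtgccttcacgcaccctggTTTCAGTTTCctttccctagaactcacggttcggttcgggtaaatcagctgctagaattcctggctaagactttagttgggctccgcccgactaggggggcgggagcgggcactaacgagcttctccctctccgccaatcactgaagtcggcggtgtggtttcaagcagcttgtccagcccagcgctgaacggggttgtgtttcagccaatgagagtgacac
Isg15: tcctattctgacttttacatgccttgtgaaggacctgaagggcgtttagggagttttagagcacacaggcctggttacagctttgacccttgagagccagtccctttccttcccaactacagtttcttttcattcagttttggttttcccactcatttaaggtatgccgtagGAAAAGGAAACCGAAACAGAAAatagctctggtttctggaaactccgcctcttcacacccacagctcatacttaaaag
Ifit3b: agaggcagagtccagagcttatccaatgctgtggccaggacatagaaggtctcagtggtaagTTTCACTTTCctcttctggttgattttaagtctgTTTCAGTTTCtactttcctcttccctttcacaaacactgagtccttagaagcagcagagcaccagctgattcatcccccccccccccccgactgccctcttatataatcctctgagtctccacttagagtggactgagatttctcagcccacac
Overlapping matches run together in Oas1a, which has 2, and in Isg15, which has 3. Stat2 has 1 and Ifit3b has 2 separate ones. The element was found on either strand in 10 of the 17 listed members with a promoter in the RefSeq table (58.8%), against 412 of 12507 genes tested (3.29%). A match says only that these letters stand in the window.

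Isg15, a ubiquitin-like protein that is joined to other proteins during the response, stood at 2.90 and 2.31 CPM in COH, 104 and 11.3 in OHSS and 37.2 and 175 in OHSS with nintedanib, a log2 fold change of 4.97 (SE 1.25). OHSS replicate 2 was the lowest pooled library and still lay above both COH libraries. Ifit3b, of the family that binds viral RNA lacking normal caps, stood at 0.927 and 1.58 CPM in COH, 87.2 and 12.6 in OHSS and 21.8 and 219.6 in OHSS with nintedanib, a log2 fold change of 6.10 (SE 1.55). Stat2, which carries the interferon signal to the nucleus, stood at 20.1 and 15.8 CPM in COH, 139 and 40.1 in OHSS and 62.1 and 147 in OHSS with nintedanib, a log2 fold change of 2.43 (SE 0.605). The order of the 4 pooled libraries for Stat2 was the same as for Isg15. Oas1a, a sensor of double-stranded RNA that activates RNase L, stood at 1.49 and 1.33 CPM in COH, 27.6 and 4.95 in OHSS and 19.7 and 52.0 in OHSS with nintedanib, a log2 fold change of 4.202 (SE 0.991). The largest log2 fold change of the list was that of Ifit1, at 6.71, and the smallest that of Bst2, at 1.23. These 4 genes and the 2 extremes were chosen after their values were seen.

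Oasl2, an OAS-like protein, had the smallest p of the list and stood at 23.5 and 22.5 CPM in COH, 147 and 70.1 in OHSS and 173 and 217 in OHSS with nintedanib, a log2 fold change of 2.72 (SE 0.463). Its relative Oasl1 stood at 1.60 and 1.40 CPM in COH against 12.9, 5.25, 9.89 and 19.6 in the pooled group, a log2 fold change of 2.98 (SE 0.569). Rtp4, an interferon-induced chaperone, stood at 3.51 and 3.22 CPM in COH against 39.8, 12.6, 21.9 and 56.5 in the pooled group, and Mx2, a dynamin-like antiviral GTPase, at 2.501 and 2.38 CPM in COH against 60.5, 17.0, 24.4 and 106 in the pooled group. In Rtp4 and Mx2 as in Oasl2 the pooled values spread over several fold while the COH values stood close together. Oas2, another sensor of double-stranded RNA, had a log2 fold change of 4.18 (SE 0.887). Xaf1 and Bst2 were the members whose groups overlapped, through OHSS replicate 2, which had 26.7 CPM of Xaf1 against 16.9 and 28.3 in COH, and 173 CPM of Bst2 against 215 and 192 in COH. The number of members with an unadjusted edgeR p under 0.05 was 15 without COH replicate 1 and 14 without COH replicate 2, and the list median moved between 3.55 and 4.52 over the 6 libraries left out in turn. Without OHSS replicate 2 edgeR called 1 member, Oasl2.

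Cells of the immune system can carry this response, and the ovary is a mixture of cell types. In bulk samples fewer cells of a type and less RNA per cell cannot be told apart. Summed levels of 16 macrophage and monocyte markers were 635 and 696 CPM in COH, 754 and 498 in untreated OHSS, and 486 and 444 with nintedanib. Of these, 8 had higher and 8 lower means. Lymphocyte markers were few and low. The 14 tested lymphocyte markers summed to 10.8 and 15.1 CPM in COH and 10.7 to 14.3 CPM in the pooled libraries, and the 8 tested neutrophil markers to 14.7 and 16.2 against 8.38 to 18.4 CPM. Elane, of the neutrophil list, had 0 counts in each library. The part of these cells in the interferon result was not tested.

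Genes of MHC class I and its peptide supply also had higher means, for 12 of 12 members, and again 0 were called by edgeR. The median log2 fold change was 0.62, 4 members had an unadjusted p under 0.05 in the higher direction (5.13% of all genes) and 3 lay above COH in each pooled library (10.9%). DESeq2 called 1 member and limma voom 0. Tap2, a subunit of the transporter that moves peptides into the endoplasmic reticulum, stood at 66.8 and 69.1 CPM in COH, 109 and 85.5 in OHSS and 103 and 117 in OHSS with nintedanib, a log2 fold change of 0.61 (SE 0.139). Its partner Tap1 stood at 16.0 and 16.5 CPM in COH against 42.3, 19.2, 28.6 and 53.9 in the pooled group, and Nlrc5, the transactivator of class I genes, at 3.37 and 4.203 CPM in COH against 12.5, 4.88, 9.68 and 31.5 in the pooled group. Psmb8, a catalytic subunit of the immunoproteasome, stood at 19.4 and 17.3 CPM in COH against 51.8, 16.2, 44.4 and 74.7 in the pooled group, with OHSS replicate 2 below both COH libraries. The count of members with an unadjusted p under 0.05 was 9 without OHSS replicate 2 and was 1 when COH replicate 1, COH replicate 2 or OHSS replicate 1 was left out.

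MHC class II genes, which present peptides from outside the cell, had lower means for 8 of 9 members, where 48.9% of all genes were lower. Of the 9, 4 had an unadjusted edgeR p under 0.05 in the lower direction (4.47% of all genes) and 5 lay below both COH libraries in each pooled library (11.3%). Calls in edgeR, DESeq2 and limma voom numbered 0. H2-Ab1, a class II beta chain, stood at 47.2 and 52.4 CPM in COH, 26.7 and 28.9 in OHSS and 13.8 and 11.1 in OHSS with nintedanib, a log2 fold change of -1.31 (SE 0.394). The 2 libraries with nintedanib were lower than the 2 OHSS libraries without it, which in turn were lower than COH. H2-Aa, the alpha chain that pairs with it, stood at 37.2 and 39.0 CPM in COH, 22.2 and 27.4 in OHSS and 11.2 and 13.3 in OHSS with nintedanib, in the same order. H2-DMa, which helps load peptides, stood at 9.44 and 9.74 CPM in COH against 6.78, 7.46, 6.24 and 4.64 in the pooled group, a log2 fold change of -0.61 (SE 0.216), and H2-Oa, which restrains peptide loading, was low, at 0.534 and 0.946 CPM in COH against 0.289, 0.231, 0.139 and 0.343 in the pooled group. H2-Eb1 was the exception, at 2.08 and 2.07 CPM in COH, 1.74 and 11.8 in OHSS and 1.32 and 10.3 in OHSS with nintedanib, with replicate 2 of both OHSS groups high and replicate 1 at the COH level.

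The class II median was -0.65 for the pooled group, and -0.37 for OHSS without and -1.39 with nintedanib, each against the same COH libraries. Between the drug groups, H2-Ab1 differed by -1.16 (SE 0.155) with an unadjusted edgeR p of 0.000472 and H2-Aa by -1.02 (SE 0.166) with 0.00126, and neither passed adjustment (adjusted p = 0.382 and 0.469). Lyz2, lysozyme of macrophages and other phagocytes, was lower in the same order, at 239.5 and 262 CPM in COH, 167 and 137 in OHSS and 82.2 and 50.7 in OHSS with nintedanib. Ccr2, a chemokine receptor of monocytes, stood at 5.23 and 5.46 CPM in COH against 3.67, 4.16, 2.98 and 2.68 in the pooled group. These were the 2 of 16 macrophage and monocyte markers at an unadjusted edgeR p under 0.05 (4.47% of all genes in the lower direction). The list as a whole had 8 higher and 8 lower means. In untreated OHSS alone 12 of the 16 were higher than COH, and with nintedanib alone 5. Fcgr1, an Fc receptor of macrophages, had the largest log2 fold change of the list, 1.41. Of the class II members, the number with an unadjusted p below 0.05 was 2 without COH replicate 1, 0 without COH replicate 2 and 3 without nintedanib replicate 1. It was 6 when OHSS replicate 2 was left out, with a median of -1.12.

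**Figure D3:**
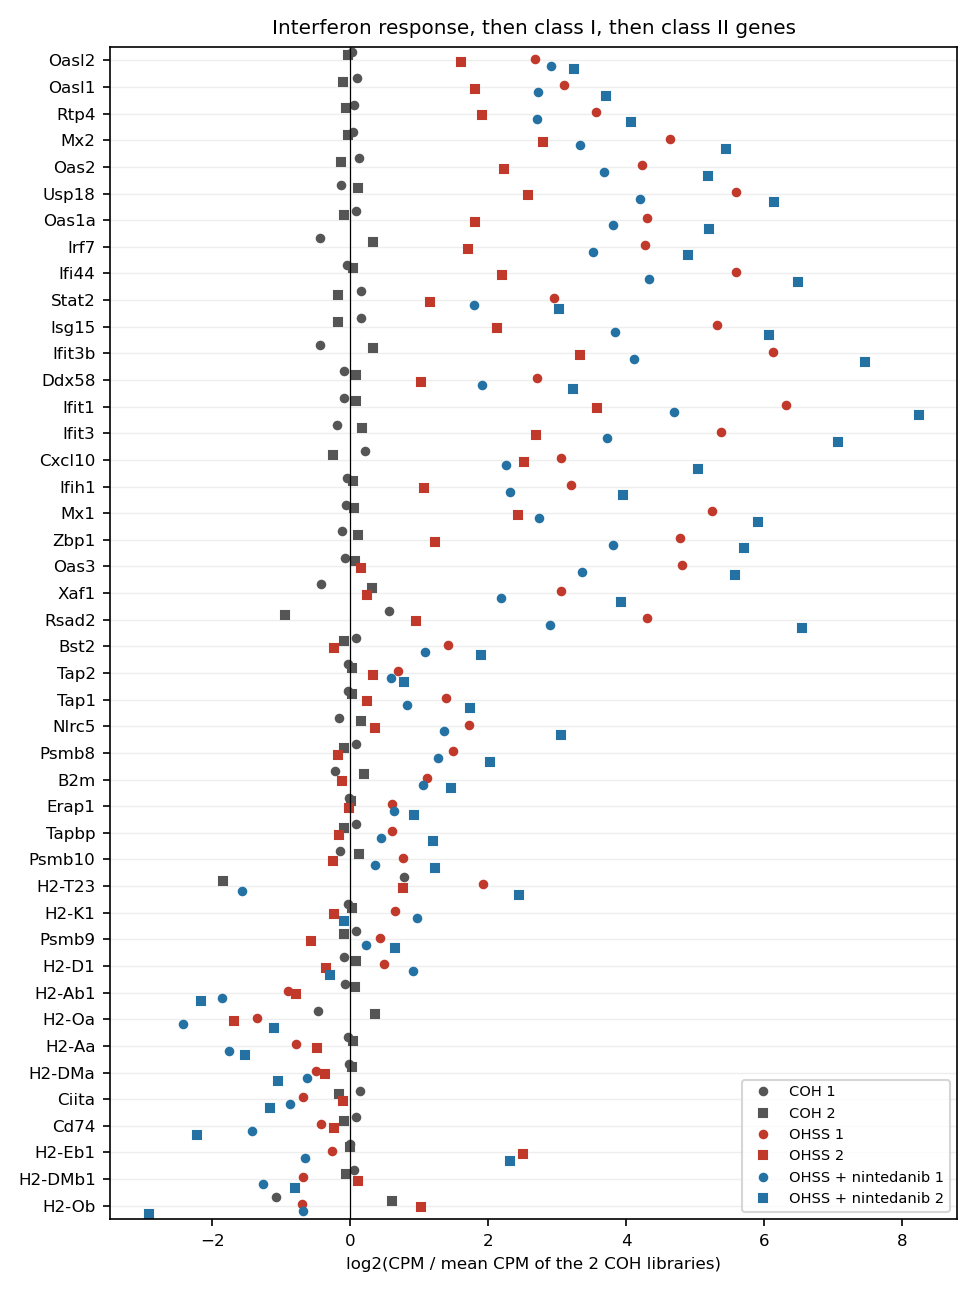
Members of the interferon response, MHC class I and MHC class II lists, from top to bottom and ordered by p within each list, as log2 of CPM over the mean CPM of the 2 COH libraries (horizontal axis), with 1 point per library (grey COH, red OHSS, blue OHSS with nintedanib; circles replicate 1, squares replicate 2). Interferon genes spread to the right with nintedanib replicate 2 highest, while 8 of the 9 class II genes have a lower pooled mean than COH.

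Genes of cholesterol synthesis had higher means in the pooled libraries for 19 of 20 members, with a median log2 fold change of 0.67. An unadjusted edgeR p under 0.05 was reached by 11 of them, each higher (5.13% of all genes), and 12 lay above both COH libraries in each pooled library (10.9%). Calls numbered 0 in edgeR, 0 in limma voom and 5 in DESeq2. Idi1, the isomerase of isopentenyl diphosphate, stood at 113 and 93.3 CPM in COH, 274 and 236 in OHSS and 168 and 174 in OHSS with nintedanib. Here the libraries with nintedanib lay between COH and untreated OHSS, and the drug difference was -0.57 (SE 0.139) with an unadjusted edgeR p of 0.00757. Cyp51, a lanosterol demethylase, stood at 270.1 and 217 CPM in COH against 602, 504, 497 and 318 in the pooled group, and Pmvk, a kinase of the mevalonate pathway, at 18.2 and 14.9 CPM in COH against 31.0, 26.9, 23.4 and 21.9 in the pooled group. The exception was Hsd17b7, at a log2 fold change of -0.17 (SE 0.697). It stood at 1196 and 1062 CPM in COH, 670 and 2349 in OHSS and 573 and 415 in OHSS with nintedanib, so only OHSS replicate 2 lay above COH.

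The list was also compared between the libraries with and without nintedanib. Its median log2 fold change was 0.85 for OHSS without and 0.44 for OHSS with nintedanib, against the same COH libraries, and the library medians lay above COH by 0.81 and 0.84 in the 2 OHSS libraries and 0.61 and 0.19 in the 2 with nintedanib. Of the 20 members, 9 were lower with nintedanib than without at an unadjusted edgeR p under 0.05 (3.47% of all genes) and 0 were called by edgeR. Nintedanib replicate 2 was the lowest of the 4 pooled libraries for 16 members, and without it the pooled median was 0.79 with 14 members at an unadjusted p below 0.05. Such members numbered 3 without COH replicate 2 and 7 without COH replicate 1, and the median stayed between 0.56 and 0.79.

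Among genes that sense, take up and export sterols, 11 of 18 had higher and 7 lower means, with a median log2 fold change of 0.094. Stard4, a cytosolic sterol carrier, stood at 64.0 and 55.2 CPM in COH against 97.2, 107, 78.2 and 81.3 in the pooled group. Insig1, which holds back processing of the sterol-regulated transcription factors, stood at 82.8 and 97.8 CPM in COH, 194 and 204 in OHSS and 124 and 121 in OHSS with nintedanib. The libraries with nintedanib lay below those without it for Insig1, a drug difference of -0.70 (SE 0.115) with an edgeR adjusted p of 0.475 and an unadjusted p of 0.00132. The members with a lower mean at an unadjusted edgeR p under 0.05 (4.47% of all genes) were Mylip and Abcg1. Mylip, a ubiquitin ligase, stood at 30.1 and 26.4 CPM in COH against 24.0, 20.9, 19.5 and 19.7 in the pooled group, and the sterol exporter Abcg1 at 21.7 and 18.9 CPM in COH against 16.5, 13.2, 16.6 and 14.7 in the pooled group. For the list edgeR and limma voom called 0 and DESeq2 1. The sterol regulatory element TCACNCCAC was found on either strand in the promoter window of Hmgcs1 alone among 15 matched cholesterol synthesis genes, and in 1.36% of 12507 genes tested.

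Fatty acid synthesis genes had higher means for 12 of 12 members, with a median log2 fold change of 0.40. Of these, 5 had an unadjusted edgeR p under 0.05 in the higher direction (5.13% of all genes). Calls numbered 0 in edgeR, 0 in limma voom and 3 in DESeq2. Elovl6, an elongase of palmitate, stood at 207 and 218 CPM in COH, 313 and 279 in OHSS and 322 and 305 in OHSS with nintedanib, a log2 fold change of 0.52 (SE 0.0950). Scd1, a desaturase that makes oleate, stood at 159 and 126 CPM in COH against 398, 370.1, 351 and 204 in the pooled group, a log2 fold change of 1.22 (SE 0.287). The desaturases Fads2 and Fads1 add double bonds to polyunsaturated fatty acids, and Fads2 stood at 246 and 247 CPM in COH against 663, 494, 829 and 316 in the pooled group. Fads1 stood at 425 and 436 CPM in COH against 826, 799, 1239 and 468 in the pooled group. For both, nintedanib replicate 1 was the highest and nintedanib replicate 2 the lowest pooled library. The number of members with an unadjusted p below 0.05 was 2 without COH replicate 1, 2 without COH replicate 2 and 7 without nintedanib replicate 2.

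**Figure D4:**
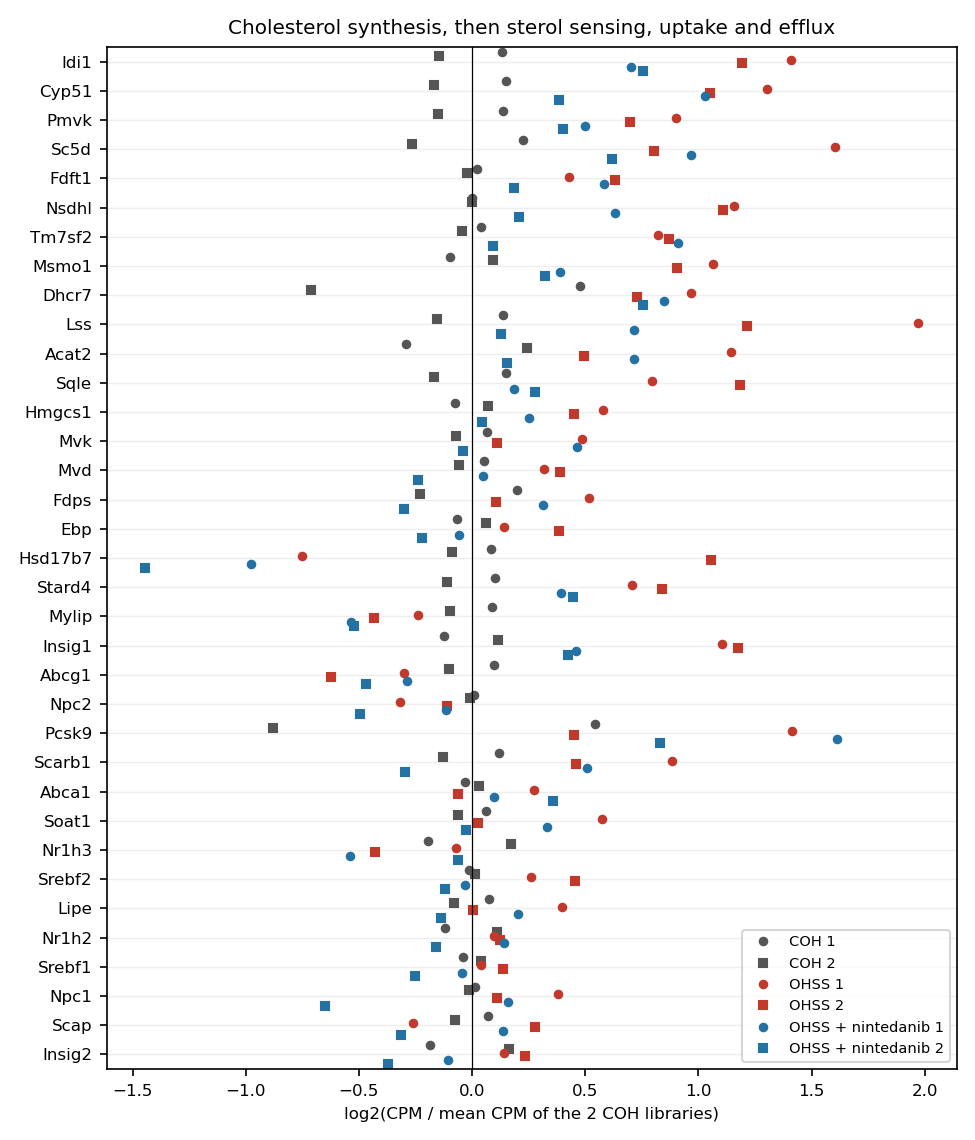
Members of the cholesterol synthesis list (top) and of the sterol sensing, uptake and efflux list (bottom), ordered by p within each list, as log2 of CPM over the mean CPM of the 2 COH libraries (horizontal axis), with 1 point per library (grey COH, red OHSS, blue OHSS with nintedanib; circles replicate 1, squares replicate 2). For 10 of the 18 synthesis genes drawn the 4 OHSS points lie right of both COH points, and nintedanib replicate 2 is the lowest of the 4 for 15 of the 18.

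Steroid hormone genes had higher means for 13 of 17 tested members, a median log2 fold change of 0.34. An unadjusted edgeR p under 0.05 was reached by 4, all of them higher, and by 2 without COH replicate 1. Over all genes, 5.13% had such a p in the higher direction. For this list edgeR and limma voom called 0 and DESeq2 2. Mc2r, the receptor of adrenocorticotropic hormone, had the smallest p and stood at 0.0562 and 0.0701 CPM in COH, 0.482 and 0.198 in OHSS and 0.347 and 0.343 in OHSS with nintedanib. Its log2 fold change of 2.38 (SE 0.616) rests on few counts, since the gene was near the floor in each library. Star, which carries cholesterol into mitochondria, stood at 893 and 863 CPM in COH, 2722 and 1396 in OHSS and 1484 and 1968 in OHSS with nintedanib, or 1.11 (SE 0.296) on the log2 scale. Cyp17a1, the theca enzyme of androgen synthesis, stood at 214 and 459 CPM in COH, 1230 and 866 in OHSS and 2464 and 734 in OHSS with nintedanib, a log2 fold change of 1.98 (SE 0.609). The COH values of Cyp17a1 lay far apart, as did the pooled values, but the groups did not overlap. Cyp19a1, the aromatase of granulosa cells, stood at 27.4 and 17.8 CPM in COH, 39.0 and 41.5 in OHSS and 62.1 and 122 in OHSS with nintedanib, a log2 fold change of 1.55 (SE 0.534). Cyp11a1, which makes pregnenolone from cholesterol, stood at 10930 and 10910 CPM in COH, 12310 and 12570 in OHSS and 11270 and 8771 in OHSS with nintedanib, and its groups overlapped. The list median was 0.25 in untreated OHSS alone, and over libraries left out it lay between 0.20 (without OHSS replicate 1) and 0.45 (without OHSS replicate 2).

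Granulosa cell markers had higher means for 12 of 16 members, with 0 called by edgeR or limma voom and 1 by DESeq2. An unadjusted edgeR p under 0.05 was reached by 2 members in each direction (5.13% of all genes higher, 4.47% lower). Without COH replicate 1 these counts were 4 higher and 0 lower, and without COH replicate 2 they were 0 and 1. Inhba, a subunit of activin and inhibin, stood at 186 and 145 CPM in COH, 271 and 389.5 in OHSS and 539 and 894 in OHSS with nintedanib, a log2 fold change of 1.66 (SE 0.489). Amh, the hormone of small growing follicles, stood at 178 and 121 CPM in COH, 79.5 and 97.97 in OHSS and 93.5 and 110 in OHSS with nintedanib, a log2 fold change of -0.65 (SE 0.187). Gja1, the main gap junction protein of granulosa cells, stood at 1425 and 1543 CPM in COH, 367 and 934 in OHSS and 901 and 459 in OHSS with nintedanib, a log2 fold change of -1.16 (SE 0.394). The list held 2 members above both COH libraries in each pooled library and 2 below, beside 10.9% and 11.3% of all genes. Its median was 0.091 for untreated OHSS and 0.71 with nintedanib, against the same COH libraries, and 9 members were higher with the drug at an unadjusted edgeR p under 0.05 (3.95% of all genes).

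Luteal markers had higher means for 10 of 14 members, with a median log2 fold change of 0.29, or 0.037 without OHSS replicate 2. Against the same COH libraries the median was 0.34 for untreated OHSS and -0.009 with nintedanib, where 7 members were higher and 7 lower. Star alone had an unadjusted edgeR p under 0.05 (5.13% of all genes in the higher direction). Among luteal markers edgeR and limma voom called 0 members and DESeq2 1. Lhcgr, the luteinizing hormone receptor, stood at 461 and 657 CPM in COH, 531 and 686 in OHSS and 653 and 358 in OHSS with nintedanib, a log2 fold change of -0.0049 (SE 0.285), with a sign that differed between fits. Theca and stroma markers were split, with 5 higher and 11 lower means, 0 called by edgeR or limma voom and 2 by DESeq2. The 2 that DESeq2 called were Star and Cyp17a1, both higher. An unadjusted edgeR p under 0.05 was reached by 2 members in the higher direction (5.13% of all genes) and 3 in the lower (4.47%). Mgp, a matrix protein, stood at 382 and 428 CPM in COH against 289, 309.8, 301 and 217 in the pooled group, Ptch1, the hedgehog receptor, at 102 and 99.1 CPM in COH against 87.0, 87.6, 84.5 and 78.3 in the pooled group, and Col3a1, a fibrillar collagen, at 1374 and 1418 CPM in COH against 1097, 909, 1159 and 1155 in the pooled group. These 3 lay below COH in each pooled library, with log2 fold changes of -0.54, -0.25 and -0.37. In the whole theca and stroma list 4 members lay below both COH libraries in each pooled library (11.3% of all genes) and 2 above (10.9%). Oocyte markers had lower means for 16 of 18 members, a median of -0.32, with 0 at an unadjusted edgeR p under 0.05 and 0 called by edgeR, DESeq2 or limma voom. Zp3 stood at 59.4 and 44.2 CPM in COH, 32.3 and 37.8 in OHSS and 30.2 and 50.8 in OHSS with nintedanib and Padi6, an oocyte lattice protein, at 133 and 85.0 CPM in COH against 64.8, 79.4, 60.04 and 102 in the pooled group, with groups that overlapped. Without COH replicate 1 the oocyte median was -0.041, and 9 members were lower, while without nintedanib replicate 2 the median was -0.55 and 8 members had an unadjusted p under 0.05.

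Genes of ovulation and cumulus expansion had higher means for 12 of 17 tested members. An unadjusted edgeR p under 0.05 was reached by 3 of them (5.13% of all genes in the higher direction). That count was 1 without COH replicate 1 and 0 without COH replicate 2, and the median log2 fold change of 0.15 was 0.54 and 0.024 in these fits. Of this list edgeR and limma voom called 0 and DESeq2 1. Ereg, a ligand of the epidermal growth factor receptor in the preovulatory follicle, stood at 3.94 and 2.91 CPM in COH, 19.2 and 7.29 in OHSS and 7.18 and 10.1 in OHSS with nintedanib, a log2 fold change of 1.68 (SE 0.486). Pgr, the progesterone receptor of preovulatory granulosa cells, stood at 3.04 and 4.10 CPM in COH, 15.9 and 14.2 in OHSS and 5.76 and 6.17 in OHSS with nintedanib, a log2 fold change of 1.56 (SE 0.522). Its drug groups did not overlap, with a difference of -1.33 (SE 0.218) and an unadjusted edgeR p of 0.00128 (adjusted p = 0.469). Ptgs2, the inducible prostaglandin synthase, stood at 0.450 and 0.701 CPM in COH, 1.74 and 1.55 in OHSS and 0.971 and 5.11 in OHSS with nintedanib, with nintedanib replicate 2 highest. Ptx3, a structural protein of the cumulus matrix, was lower in each pooled library, at 5.62 and 4.24 CPM in COH against 1.29, 1.58, 4.02 and 3.08 in the pooled group. Ptges, the prostaglandin E synthase, stood at 134 and 132 CPM in COH against 84.1, 118, 90.2 and 88.1 in the pooled group, a log2 fold change of -0.49 (SE 0.148).

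VEGF and its main receptors were not called between the pooled group and COH. Vegfa, the form that drives vessel leakage, stood at 103 and 89.7 CPM in COH, 167 and 111 in OHSS and 134 and 121 in OHSS with nintedanib, above COH in each pooled library. Its log2 fold change was 0.47 (SE 0.178), with an edgeR adjusted p of 0.495 and an unadjusted p of 0.0372. Kdr, the main signalling receptor of VEGF, stood at 94.1 and 81.5 CPM in COH, 85.9 and 76.4 in OHSS and 103 and 91.3 in OHSS with nintedanib, a log2 fold change of 0.023 (SE 0.139). Flt1, the decoy receptor, stood at 43.4 and 40.0 CPM in COH against 50.1, 42.5, 57.5 and 48.3 in the pooled group, a log2 fold change of 0.25 (SE 0.136). Both receptors had groups that overlapped, and the sign of Kdr turned in 4 of 18 other fits. Pdgfra and Pdgfrb, the receptors of PDGF on stromal and mural cells, had log2 fold changes of -0.19 (SE 0.153) and -0.44 (SE 0.209). Of 15 genes of the VEGF and angiopoietin system, 10 had higher means and 0 had a call by edgeR, DESeq2 or limma voom. Vegfa alone (1 of 15) had an unadjusted edgeR p under 0.05, beside 5.13% of all genes in the higher direction. Of 13 kinases that nintedanib inhibits, 8 had lower means and 0 were called by any of the 3 tools. An unadjusted edgeR p under 0.05 was reached by 1, beside 4.47% of all genes in the lower direction. Flt3, a receptor of blood cell precursors, was that member, at 1.01 and 0.805 CPM in COH against 0.225, 0.264, 0.520 and 0.187 in the pooled group.

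Endothelial markers had a median log2 fold change of -0.064 over 20 members, 9 higher and 11 lower, and the sign of that median differed between fits. Cldn5 alone had an unadjusted edgeR p below 0.05 in the pooled comparison (4.47% of all genes in the lower direction), with 0 calls in edgeR, DESeq2 and limma voom. Against the same COH libraries, untreated OHSS had 5 higher and 15 lower means (median -0.20) and OHSS with nintedanib 12 and 8 (median 0.054). With the drug, 5 of the 20 were higher than without at an unadjusted edgeR p under 0.05 (3.95% of all genes) and 0 lower. Pecam1 stood at 108 and 106 CPM in COH, 74.3 and 112 in OHSS and 106 and 98.8 in OHSS with nintedanib and Cdh5, the cadherin of endothelial junctions, at 143 and 161 CPM in COH, 121 and 135 in OHSS and 178 and 207 in OHSS with nintedanib. Cdh5 was higher with the drug than without, by 0.59 (SE 0.129) with an unadjusted edgeR p of 0.00516, and its pooled log2 fold change was 0.075 (SE 0.227), with a sign that turned in untreated OHSS alone. Cldn5, a claudin of tight junctions, lay below COH in each pooled library, at 73.0 and 73.2 CPM in COH against 43.7, 50.1, 56.6 and 63.3 in the pooled group, a log2 fold change of -0.45 (SE 0.153). Aqp1, a water channel of vessel walls, did so too, at 52.9 and 41.4 CPM in COH, 23.9 and 34.2 in OHSS and 25.4 and 21.8 in OHSS with nintedanib, a log2 fold change of -0.84 (SE 0.203). These were the 2 members of the 17 vessel barrier genes at an unadjusted edgeR p under 0.05 (4.47% of all genes in the lower direction). Among the 17, edgeR and limma voom called 0 and DESeq2 1. Myh11, myosin of smooth muscle, stood at 200.2 and 186 CPM in COH against 269.5, 221, 215 and 269 in the pooled group.

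Inflammatory and adhesion genes had higher means for 12 of 16 tested members. An unadjusted edgeR p under 0.05 was reached by 4 of them (5.13% of all genes in the higher direction). In this list edgeR and limma voom called 0 and DESeq2 2. Without COH replicate 1 the count of 4 was 2, and without COH replicate 2 the list median was 0.88 in place of 0.38. Sele, the E-selectin that activated endothelium uses to slow leukocytes, stood at 0.365 and 0.350 CPM in COH, 1.16 and 1.52 in OHSS and 1.28 and 1.22 in OHSS with nintedanib, a log2 fold change of 1.84 (SE 0.326). Though low, Sele lay in a narrow range in the pooled libraries and well above COH. Cxcl10, a chemokine induced by interferon, stood at 2.64 and 1.93 CPM in COH, 19.0 and 13.1 in OHSS and 10.9 and 74.9 in OHSS with nintedanib, a log2 fold change of 3.68 (SE 1.01). Tnf, a cytokine that activates endothelium, stood at 0.112 and 0.385 CPM in COH against 0.707, 1.09, 1.04 and 0.436 in the pooled group, with nintedanib replicate 2 close to COH replicate 2. Gzmb, a granzyme of cytotoxic lymphocytes, stood at 0.703 and 1.05 CPM in COH against 2.93, 3.70, 2.25 and 1.43 in the pooled group. It was the 1 lymphocyte marker of 14 at an unadjusted edgeR p under 0.05 (5.13% of all genes in the higher direction). The lymphocyte list had 10 lower means and a median of -0.38, or 0.13 without COH replicate 2. Ren1, renin, stood at 8.88 and 7.08 CPM in COH against 34.3, 14.6, 20.9 and 11.9 in the pooled group. Mmp9, a gelatinase that neutrophils store, stood at 7.45 and 6.09 CPM in COH against 2.86, 5.28, 2.15 and 3.12 in the pooled group, and Ctgf, a matrix-associated growth factor, at 39.8 and 39.3 CPM in COH against 59.5, 57.1, 96.8 and 157 in the pooled group.

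Lists of other cells and of RNA handling give the setting for these values. Haemoglobin and other erythroid genes had lower means for 5 of 5 tested members, a median of -0.86, and summed to 219.5 and 218 CPM in COH, 60.4 and 173 in untreated OHSS, and 156 and 84.0 with nintedanib. The beta globin Hbb-bt stood at 17.6 and 16.1 CPM in COH against 6.82, 12.6, 12.6 and 8.98 in the pooled group, and the alpha globin Hba-a1 at 87.1 and 82.4 CPM in COH against 25.3, 63.9, 64.0 and 32.2 in the pooled group. Globin genes have near-identical copies that can share reads. Adipocyte markers summed to 68.8 and 78.2 CPM in COH and 76.3 to 132.9 CPM in the pooled libraries, with Lep and Ucp1 at 0 counts. Ovgp1, an oviduct glycoprotein, stood at 1.43 and 0.665 CPM in COH against 3.38, 2.28, 2.71 and 2.49 in the pooled group, and 4 of 7 tested oviduct markers had higher means. That number was 3 without COH replicate 2, without OHSS replicate 2 and with limma voom, and 6 without COH replicate 1. Surface epithelium markers had lower means for 11 of 12 members, with a median of -0.44, but without COH replicate 1 they had 6 higher and 6 lower means and a median of -0.031. Gpm6a of that list stood at 13.1 and 9.56 CPM in COH against 4.82, 9.01, 4.37 and 7.23 in the pooled group. The part of these cell types in the results above was not tested.

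Immediate early and heat shock genes, which respond to handling of tissue, had lower means for 12 of 14 members, with 0 called by edgeR, DESeq2 or limma voom. An unadjusted edgeR p under 0.05 was reached by 1 member (4.47% of all genes in the lower direction). Ier2 stood at 71.0 and 96.9 CPM in COH against 40.0, 48.0, 50.9 and 66.8 in the pooled group, and the median of the list was -0.17, or -0.83 without nintedanib replicate 2, where 9 members had an unadjusted p under 0.05. Mitochondrial transcripts took 5.21 and 5.96% of counts in COH, 6.80 and 7.10% in untreated OHSS, and 5.88 and 5.72% with nintedanib. Of 13 mitochondrial genes tested, 10 had higher means, and nintedanib replicate 2 was the lowest pooled library for 12. Hypoxia and glycolysis genes, a list that holds Ak4, were split into 10 higher and 9 lower means, and Ndrg1, a member induced by low oxygen, stood at 42.4 and 55.8 CPM in COH against 35.8, 26.5, 32.3 and 20.4 in the pooled group. The hypoxia response element ACGTG, which is also part of the E-box CACGTG, was found on either strand in 14 of 18 matched promoters of this list (77.8%), against 23.4% of 12507 genes tested. Of the remaining lists, extracellular matrix genes had 5 higher and 15 lower means, prostaglandin genes 8 and 8, renin, angiotensin and kinin genes 6 and 3, pericyte and smooth muscle genes 9 and 5, and chaperones of the endoplasmic reticulum 5 and 9. Lymphocyte markers had 4 higher and 10 lower means and neutrophil markers 3 and 5. In these 7 lists edgeR, DESeq2 and limma voom called 0 members. Each list had 1 or 2 members at an unadjusted edgeR p under 0.05, beside 9.6% of all genes in either direction. Cell cycle genes had 0 of 20 members at an unadjusted edgeR p under 0.05 in the pooled comparison and 0 called by edgeR, DESeq2 or limma voom. With the drug 8 were higher at an unadjusted edgeR p under 0.05 (3.95% of all genes). The plot of list medians shows each library's median for the 33 lists.

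**Figure D5:**
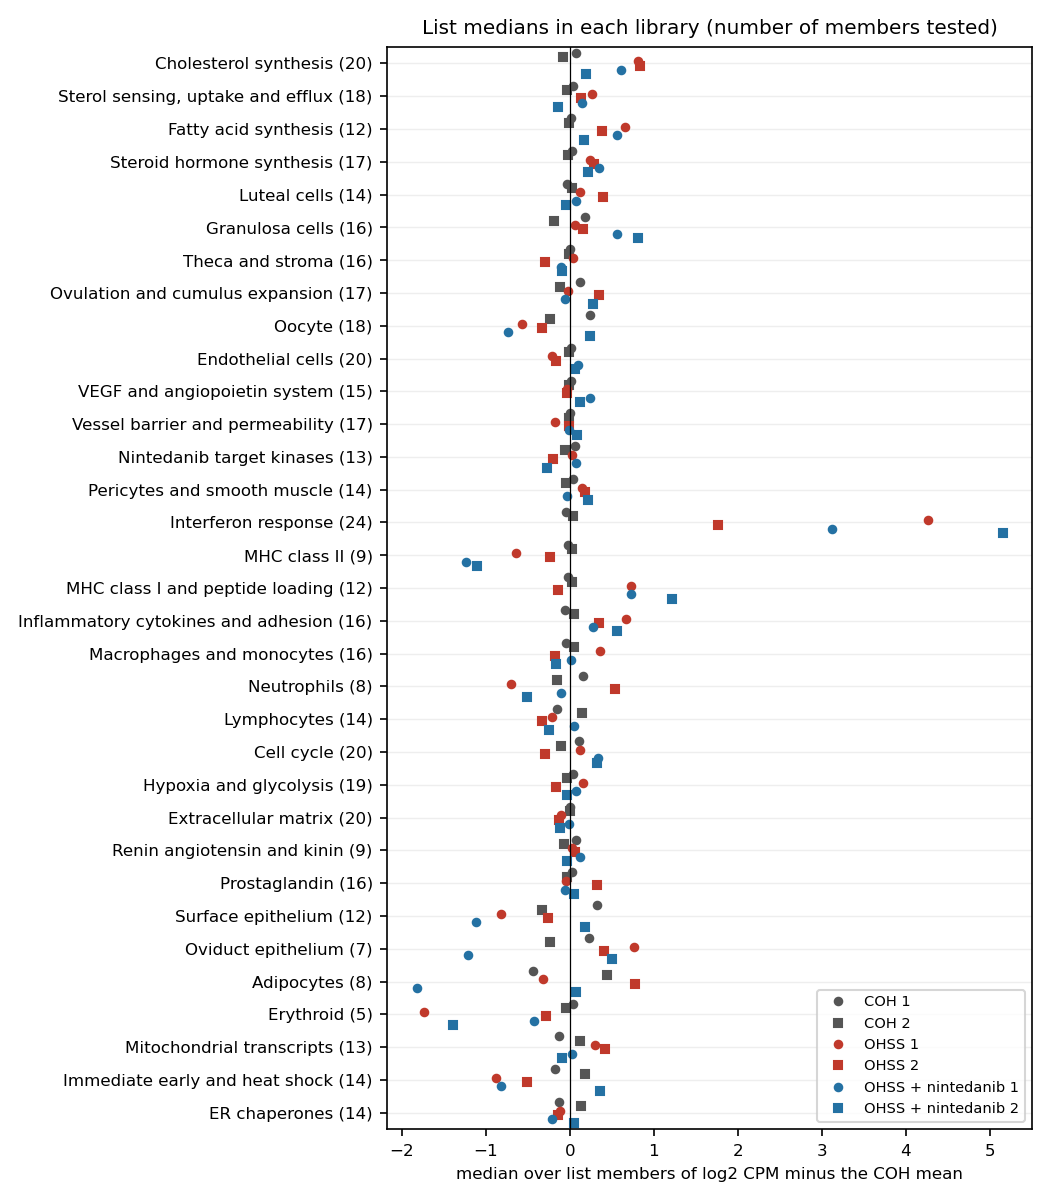
Median over the tested members of each of 33 lists of the log2 CPM minus the mean of the 2 COH libraries (horizontal axis), with 1 point per library (grey COH, red OHSS, blue OHSS with nintedanib; circles replicate 1, squares replicate 2) and the number of members in brackets. The interferon response lies farthest from 0, at 1.77 to 5.15 in the pooled libraries. Medians of MHC class II lie below 0 in the 4 pooled libraries, and those of cholesterol and fatty acid synthesis above it.

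Within the pooled group, the 2 libraries with nintedanib and the 2 without differed in 1 gene called by edgeR (0.00526% of 19027), with 1412 genes (7.42%) at an unadjusted p under 0.05, 751 higher with the drug and 661 lower. DESeq2 called 223 genes and limma voom 1. The called gene, Rpsa-ps10, is a ribosomal protein pseudogene outside the rule for named genes and was chosen after its values were seen. It stood at 10.99 and 11.9 CPM in COH, 8.78 and 5.81 in OHSS and 346 and 374 in OHSS with nintedanib, a drug difference of 5.62 (SE 0.243) and an edgeR adjusted p of 0.0241. Rpsa, the ribosomal protein gene it is named after, went the other way with the drug. It stood at 1139 and 1039 CPM in COH, 904 and 726 in OHSS and 623 and 615 in OHSS with nintedanib. How reads were divided between them was not tested. Rpsa-ps10 is uncertain, because at least 3 other annotated genes share part of its transcript and 1 of these shares all of it. It was not called without COH replicate 1, COH replicate 2 or nintedanib replicate 2, where 0, 0 and 2 genes were called, and edgeR called 30 genes without nintedanib replicate 1 and 2 without OHSS replicate 1.

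Genes that were next in rank by the drug had pooled values that hide the difference. Abhd4, a lipid hydrolase, stood at 125 and 134 CPM in COH, 139.5 and 130.1 in OHSS and 434 and 343 in OHSS with nintedanib, a drug difference of 1.53 (SE 0.144), and Rnf26, a ubiquitin ligase, at 22.4 and 26.3 CPM in COH, 5.34 and 6.04 in OHSS and 17.9 and 17.7 in OHSS with nintedanib, a difference of 1.65 (SE 0.159). The value of Rnf26 is uncertain, because 72.8% of its transcript is shared with Gm49380, which overlaps it on the same strand. The pooled log2 fold changes of 1.01 (SE 0.549) for Abhd4 and -1.05 (SE 0.542) for Rnf26 had large errors, since 1 pair of the pooled libraries lay near COH and the other did not. For Rnf26 the untreated pair was away from COH, and for Abhd4 the pair with nintedanib. Kidins220, a scaffold of neurotrophin receptors, stood at 115 and 109 CPM in COH, 121 and 125 in OHSS and 44.3 and 37.1 in OHSS with nintedanib, again with the drug pair away from COH. Aldh3b2, an aldehyde dehydrogenase, stood at 10.3 and 8.93 CPM in COH and 14.9 and 12.01 in OHSS, and at 0 and 0.0312 CPM with nintedanib. Raver1 has 2 gene IDs in the table, with drug differences of 1.41 and -1.04, so its reads may have been split between them. None of these genes passed the adjusted test of edgeR on the 6 libraries, with adjusted p-values of 0.0538 for Aldh3b2 and 0.193 for Abhd4, and limma voom called 0 of them. DESeq2 called each of them, and edgeR called Aldh3b2 with no filter on low counts and without nintedanib replicate 1.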

How the data were processed

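RNA of 6 frozen mouse ovary samples was measured by mRNA sequencing, and the authors deposited a table of raw counts per Ensembl gene (51826 genes), as the file header gives it, and a read summary per library. Per the submitters' processing notes, Trimmomatic 0.36, HISAT2 2.1.0, StringTie 1.3.3b and the build mm8 were used. Which program counted reads, with which annotation and strand setting, and how reads with several matches were treated, is not given in the sources used here. The deposited count totals were 144.2 to 148% of the deposited numbers of read pairs, so both mates of a pair appear to have been counted and the counts overstate the number of independent fragments. Unassigned columns and rows without a gene numbered 0.

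The counts were tested as deposited with edgeR 4.0.16 (R 4.3.3): filterByExpr, TMM scaling, a quasi-likelihood F test and Benjamini-Hochberg adjustment over 19027 genes, threshold 0.05. The main model had 2 groups, 4 OHSS libraries against 2 COH libraries, with 4 residual degrees of freedom. A model of 3 groups gave the drug difference and each OHSS group against COH. SE values were derived from the F statistic, and the test was checked on simulated counts. Levels are CPM on TMM-scaled library sizes, and per-library list medians used log2 CPM with a prior count of 2. For a single gene, an exact test of 4 against 2 has 15 splits and cannot go below a two-sided p of 0.133, so none is printed.

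The text names called genes whose mean reached 5 CPM (up to 15 per direction), filled to 10 per direction by smallest p, a fixed set of VEGF, steroid and sterol genes, up to 5 members with the smallest p in each of 33 lists (467 genes, 444 tested), and up to 5 per direction for the drug. A few genes that these rules select are not reported or drawn by name here, and counts over lists include them. Members and lists were chosen with earlier results of these data known. Alternatives were other scalings, filters, DESeq2 1.42.0, limma voom 3.58.1, a robust prior, a replicate block, each OHSS group alone and each library left out. Shared sequence was measured with BLAST 2.17.0 on GENCODE transcripts, and promoters came from RefSeq (GRCm38.p6), matched by symbol. Gene order came from RefSeq and no coordinate of the counting build is printed. Figures were drawn with matplotlib 3.10.9 in Python 3.11.15.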

Additional observations from a re-analysis of the deposited data

Results flagged for a closer look

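Of 107 genes checked over the 4 pooled OHSS libraries, 4 had a library set apart from the other 3 relative to the range of the 4. Chance gives about 1 group in 20, so 4 of 107 is no more than that share. Cygb was at 167.2 CPM in OHSS replicate 1, against 156.1 to 157.7 CPM in the others. Rps28 was at 142.4 CPM in OHSS replicate 2, against 161.7 to 164.6 CPM in the others. Btc, a ligand of the epidermal growth factor receptor, was at 2.898 CPM in nintedanib replicate 2, against 0.957 to 1.145 CPM in the others. Cxcl10 was at 74.89 CPM in nintedanib replicate 2, the pooled library with the highest level of each interferon list member, against 10.93 to 18.97 CPM in the others. The COH libraries, with 2 replicates, could not be checked in this way.

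Rpsa-ps10 differed between the OHSS libraries with and without nintedanib by 5.624 on the log2 scale, in a tested difference (edgeR adjusted p = 0.0241). Its transcript is shared with another annotated copy, and the part of read assignment in this difference was not tested.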

How the results depend on the processing

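The 5 calls of the pooled comparison became 330 with DESeq2 and 2 with untreated OHSS alone, and 0 to 11 with single libraries left out. With 0 calls, 797 genes had an unadjusted p under 0.05. In the other 11 settings there were 4 to 7 calls. The 1 call between the drug groups became 2 with no filter, 223 with DESeq2 and 0 with a replicate block (1242 genes at an unadjusted p under 0.05), and 0 to 30 with single libraries left out. Over all genes, the deviations of same-numbered libraries were nearly uncorrelated (r = -0.000723, 0.0484 and -0.00226). A correlation over all genes cannot tell whether the libraries are paired in some genes. The replicate block gave 4 calls in the pooled comparison, with Nktr at an edgeR adjusted p of 0.189. Of genes at an unadjusted p under 0.05 between the drug groups, 53.2% were higher with the drug, and 70.7% with library size as the only scaling. Signs turned for few named genes. Kdr was -0.0018 with library size only, -0.114 in untreated OHSS alone and -0.0785 to 0.1296 with libraries left out. Cdh5 was -0.2469 in untreated OHSS alone and -0.0709 to 0.1904, and Cyp11a1 -0.1242 with nintedanib alone and -0.0225 to 0.1424. Lhcgr was 0.007 with RLE scaling and with DESeq2, 0.0011 with the stricter filter, 7e-04 with the replicate block, 0.1228 in untreated OHSS alone and -0.2374 to 0.2729 with libraries left out. Rpsa-ps10, Aldh3b2 and Kidins220 were -0.6496, 0.4859 and 0.1367 in untreated OHSS alone. The cause of these changes was not tested. Of the values of 107 genes under the alternatives, 1821 kept direction and side of the threshold, 49 passed it newly, 23 no longer passed and 21 turned sign. List medians moved by more than the spread of the pooled libraries in 30 of 592 fits. With the stricter filter, a list left with no members has no value. The number of COH libraries, 2, limits the precision of the pooled comparison.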

Other observations

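Genes of the cytosolic ribosome, a group chosen after its values were seen, had lower means in the pooled OHSS libraries for 75 of 79 members, with a median log2 fold change of -0.40. An unadjusted edgeR p under 0.05 in the lower direction was reached by 58 members (4.47% of all genes), and 65 lay below both COH libraries in each pooled library (11.3%). Calls numbered 0 in edgeR, 0 in limma voom and 9 in DESeq2. The members with a higher mean had their highest level in nintedanib replicate 2. Without that library 78 of 79 members had lower means, and 67 had an unadjusted edgeR p under 0.05 in the lower direction. Rps27, a protein of the small subunit, stood at 397 and 444 CPM in COH against 294, 248, 289 and 321 in the pooled group, and Rpl32, of the large subunit, at 491 and 477 CPM in COH against 352, 302, 372 and 380.5 in the pooled group. In both genes the 4 pooled libraries lay below both COH libraries and OHSS replicate 2 was the lowest. The count of 58 was 18 without COH replicate 1 and 29 without COH replicate 2, and the median stayed between -0.44 and -0.33 over the libraries left out. Many of these genes have processed copies elsewhere in the genome that can share reads.

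Mitochondrial ribosomal protein genes had lower means for 69 of 77 members, with a median log2 fold change of -0.18 and 0 called by edgeR, DESeq2 or limma voom. An unadjusted edgeR p under 0.05 was reached by 13 (4.47% of all genes in the lower direction). The count of 13 was 5 without COH replicate 1 and 1 without COH replicate 2. Mrpl34, a protein of the large subunit, stood at 40.9 and 43.7 CPM in COH against 24.3, 29.7, 33.2 and 26.5 in the pooled group.

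The interferon-inducible p200 family, guanylate-binding proteins and immunity-related GTPases, as a further group chosen after values were seen, had higher means for 29 of 30 members. Like the ribosomal groups above, it holds genes with a mean of at least 1 CPM over the 6 libraries. Some members had 0 CPM in both COH libraries, so they passed through the pooled libraries alone and could only count as higher. The median log2 fold change was 2.63, and 20 members had an unadjusted edgeR p under 0.05 in the higher direction (5.13% of all genes). Calls numbered 0 in edgeR and limma voom and 16 in DESeq2. Irgm2, a GTPase of vacuole defence, stood at 15.5 and 17.3 CPM in COH against 122, 45.9, 67.0 and 179 in the pooled group, and Gbp3, a guanylate-binding protein, at 10.8 and 8.48 CPM in COH against 125, 24.1, 56.3 and 230 in the pooled group. Nintedanib replicate 2 was the highest and OHSS replicate 2 the lowest pooled library for both, as for the interferon list. Several members of these families are near-identical copies and may share reads. The count of 20 was 10 without COH replicate 1 and 6 without COH replicate 2. Without nintedanib replicate 2 the median was 1.90, with 25 higher and 3 lower means among 28 members tested, and edgeR called 1 member.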
